A study of Homo sapiens with 16 samples.

Results

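The SLC25 family encodes the mitochondrial carriers, and 40 of its genes were examined for ChIP-seq regions of BCL11A and of ZBTB7A, which are zinc-finger repressors of fetal globin. The 40 genes were all autosomal genes with a protein-coding (NM) transcript in the authors' annotation whose symbol begins with SLC25A and a number, of 18460 autosomal protein-coding genes in all. The 5 family genes on the sex chromosomes (SLC25A5, SLC25A6, SLC25A14, SLC25A43 and SLC25A53) were not members, and 3 autosomal genes of the iron pathway, SLC25A28, SLC25A37 and SLC25A38, were left out. ChIP-seq sequences the DNA that comes down with an antibody to a chromatin protein, and the series has 8 ChIP and 8 control libraries. The control titles say input while their antibody label says IgG. HUDEP-2 is an immortalised human erythroid progenitor line and K562 a human erythroleukaemia line.

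BCL11A was recovered through the V5 tag of a BCL11A-ER-V5 construct in HUDEP-2 cells treated for 24 h with 4-hydroxytamoxifen at 1e-07 M, which induces the construct (2 ChIP and 2 control libraries, all treated). The tagged factor therefore came from an induced construct and not from the gene's own locus. ZBTB7A was recovered with antibodies to the protein itself in K562 (4 ChIP, 4 controls) and in ΔGγ HUDEP-2 cells, for which the deposited annotation has no HBG2 transcript. The ΔGγ cells were labelled WT or 195C>G, after a base change at the γ-globin promoter, with 1 ChIP and 1 control for each label. HUDEP-2 medium held stem cell factor, erythropoietin, dexamethasone and doxycycline. The sources used here do not say whether the ΔGγ cells were clones.

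Mitochondrial carriers sit mostly in the inner mitochondrial membrane and exchange metabolites between the cytosol and the matrix. They pass ADP, ATP, phosphate, citrate, amino acids, fatty acyl groups and cofactors, and so join glycolysis, the citric acid cycle, the urea cycle and oxidative phosphorylation. In red cell precursors mitochondria also supply heme, for which glycine, amino acids, cofactors and iron have to cross that membrane.

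The authors deposited 1 list of bound regions (peaks) per condition, and the lists held 12911 BCL11A, 17331 K562, 36435 WT and 18784 195C>G regions. The BCL11A and K562 lists each pool replicates and the other lists come from 1 library each, so no value below has an error between replicates and no test between conditions could be made. Read depth is unknown. A region was given to a promoter when its centre lay within 1 kb of the transcription start of an NM transcript. The centre is the summit for WT and 195C>G and the midpoint for the other lists. Ranks count from 1 for the strongest region, by the authors' score (BCL11A) or signal (WT and 195C>G), which are compared only within their own list. For K562, which comes without any such value, the order of the list was taken as rank. Whether that order follows strength is not known. Because the lists differ in length, equal ranks in different lists do not show equal binding. Intervals are exact Clopper-Pearson 95% intervals and cover counting error only.

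A promoter region was listed for 28 of the 40 carrier genes in at least 1 list, beside 56.1% of all autosomal genes. In the BCL11A list 19 carriers had one, or 47.5% (31.5 to 63.9%), beside 25.2% of all genes. In K562 the count for ZBTB7A was 16, or 40.0% (24.9 to 56.7%), beside 34.0%. In WT it was 23, or 57.5% (40.9 to 73.0%), beside 46.1%, and in 195C>G it was 12, or 30.0% (16.6 to 46.5%), beside 30.1%. The interval of the BCL11A share lay above the share of all genes, whereas those of the 3 ZBTB7A shares held it. Carriers are not replicates of each other, and with the stronger 50% of each list the BCL11A count was 11 of 40, beside 14.3% of all genes.

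**Figure D1:**
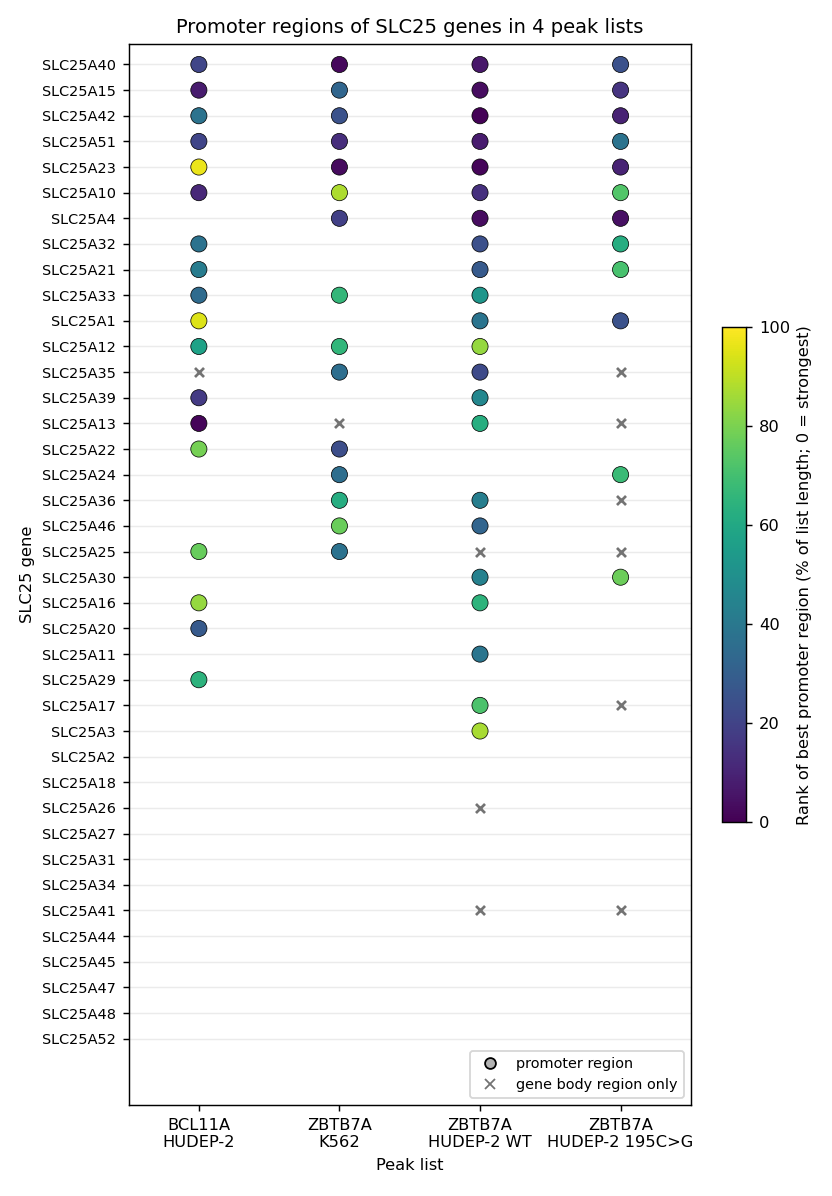
Rows are 39 of the 40 SLC25 genes and columns the 4 peak lists. A circle marks a promoter region, coloured by the rank of the best one as a percentage of the list's length, and a cross a region in the gene body only. On this scale 0 is strongest, or for K562 first in list order. The 6 uppermost genes have a circle in every column and the 12 lowest have no circle.

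In all, 6 carriers had a promoter region in all 4 lists, or 15.0% beside 10.5% of all genes. The count was 2 with a window of 500 bp and 4 with the stronger 50% of each list. The share of all genes in all 4 lists was not computed at these settings, where it may differ from 10.5%. The 6 were SLC25A10, SLC25A15, SLC25A23, SLC25A40, SLC25A42 and SLC25A51. Another 7 had one in 3 lists (among them SLC25A1, SLC25A4, SLC25A12, SLC25A21, SLC25A32 and SLC25A33), 10 in 2 lists and 5 in 1 list. Another 12, or 30.0% beside 43.9% of all genes, had none in any list: SLC25A2, SLC25A18, SLC25A26, SLC25A27, SLC25A31, SLC25A34, SLC25A41, SLC25A44, SLC25A45, SLC25A47, SLC25A48 and SLC25A52. They include SLC25A31, an ADP/ATP carrier of the germ line, and SLC25A47, a carrier best known from liver. SLC25A26, the S-adenosylmethionine carrier, and SLC25A44, a branched-chain amino acid carrier, are also among them. Expression was not measured.

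Beyond presence, the listed regions were compared by rank within each list, which for K562 is list order only. The median rank of the best promoter region was 4888 (37.9% down the list) for the BCL11A carriers, beside 5672 (43.9%) for all genes with one. For ZBTB7A it was 5931 (34.2%) in K562, beside 6507 (37.5%), and 11683 (32.1%) for WT, beside 10258 (28.2%). In 195C>G it was 5931 (31.6%), beside 7432 (39.6%). The carriers ran from rank 186 to 12545 for BCL11A, from 350 to 15177 for K562, from 158 to 31608 for WT and from 766 to 14541 for 195C>G. All 3 ZBTB7A lists held a promoter region for 7 carriers, the 6 above and SLC25A4, beside 20.7% of all genes.

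The DNA before the start of several of these genes is printed here so that carriers with listed promoters can be read beside carriers in no list. The sequences are RefSeq's for GRCh38.p14, 5′ to 3′ on the gene's own strand, ending at or just before the start in the authors' annotation and cut so that no annotated exon is included. Capitals mark matches, on either strand, to any of 7 short motifs. TGACCA is the motif searched for BCL11A. For ZBTB7A the letters searched were CCTTCCC, part of its site in the γ-globin promoter. The other letters searched were CCGGAAG for the ETS family, then for the factor NRF1 the letters GCATGCG, for the SP family the GC box GGGCGG, for the GATA family the element AGATAA, and for the factor NFY the box CCAAT. SLC25A15 (chr13:40789361-40789410, plus strand), SLC25A42 (chr19:19063744-19063960, plus) and SLC25A23 (chr19:6459793-6460042, minus) were in all 4 lists. SLC25A4 (chr4:185143016-185143262, plus) had the best carrier rank in 195C>G and SLC25A13 (chr7:96322148-96322348, minus) the best in the BCL11A list. SLC25A31 (chr4:127730150-127730377, plus), an ADP/ATP carrier like SLC25A4, and SLC25A52 (chr18:31760881-31761130, minus), an NAD carrier like SLC25A51, were in no list. Not every listed region lies over the printed bases. The best region of SLC25A23 in each list lies wholly upstream of its printed run. Only a weaker 195C>G region of that gene (rank 15937) reaches into the run. The BCL11A region of SLC25A42 also lies upstream of its printed run.
SLC25A15: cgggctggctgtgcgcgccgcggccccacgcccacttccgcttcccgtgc
SLC25A42: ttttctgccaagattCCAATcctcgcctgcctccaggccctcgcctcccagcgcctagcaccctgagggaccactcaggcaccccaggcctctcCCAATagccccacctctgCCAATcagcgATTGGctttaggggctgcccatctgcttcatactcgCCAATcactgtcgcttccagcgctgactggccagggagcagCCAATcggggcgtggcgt
SLC25A23: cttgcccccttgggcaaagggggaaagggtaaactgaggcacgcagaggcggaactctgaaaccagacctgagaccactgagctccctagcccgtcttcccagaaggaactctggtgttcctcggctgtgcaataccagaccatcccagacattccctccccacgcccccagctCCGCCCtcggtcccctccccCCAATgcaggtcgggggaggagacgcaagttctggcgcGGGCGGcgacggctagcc
SLC25A4: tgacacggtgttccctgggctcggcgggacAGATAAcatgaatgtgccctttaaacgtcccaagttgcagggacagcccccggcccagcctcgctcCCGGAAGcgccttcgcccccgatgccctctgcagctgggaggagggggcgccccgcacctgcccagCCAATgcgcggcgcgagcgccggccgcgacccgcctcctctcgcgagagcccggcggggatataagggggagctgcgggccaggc
SLC25A13: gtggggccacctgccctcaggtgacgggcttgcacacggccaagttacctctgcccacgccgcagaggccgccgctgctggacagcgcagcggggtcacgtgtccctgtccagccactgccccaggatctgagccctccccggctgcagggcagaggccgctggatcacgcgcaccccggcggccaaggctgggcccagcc
SLC25A31: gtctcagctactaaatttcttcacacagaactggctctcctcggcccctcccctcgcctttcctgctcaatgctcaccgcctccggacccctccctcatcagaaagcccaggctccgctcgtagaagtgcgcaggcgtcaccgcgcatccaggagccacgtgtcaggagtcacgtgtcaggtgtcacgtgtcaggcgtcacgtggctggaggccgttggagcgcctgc
SLC25A52: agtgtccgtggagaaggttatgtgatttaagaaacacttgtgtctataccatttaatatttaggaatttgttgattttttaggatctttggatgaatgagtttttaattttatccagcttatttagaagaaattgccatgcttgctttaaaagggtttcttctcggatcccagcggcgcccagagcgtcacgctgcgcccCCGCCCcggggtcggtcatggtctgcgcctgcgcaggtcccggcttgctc

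SLC25A42 stands out in this set by its CCAAT boxes: 5 lie on the printed strand, between -202 and -14 bp from the first start, and 1 on the other strand. Of 19713 promoters of 300 bases (250 before and 50 after a RefSeq start), 19 (0.0964%) hold 6 or more, and no other carrier promoter holds more than 2. The printed run of SLC25A31 holds none of the 7 motifs, and neither do those of SLC25A15 and SLC25A13, which were listed. That of SLC25A52, in no list, holds a GC box. The SLC25A31 promoter holds CACGTG 4 times. Of the 19713 promoters, 5 (0.0254%), this one included, hold it as often or more. Both counts of repeats were made after the sequences were seen.

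Carriers of dicarboxylates, keto acids and citrate feed and drain the citric acid cycle. All 4 had a WT promoter region, beside 46.1% of all genes. SLC25A10, the dicarboxylate carrier, had a BCL11A region 143 bp upstream of its start (rank 1450, score 92.2). ZBTB7A regions stood at its start in K562 (rank 15177), WT (rank 5002, signal 54.2) and 195C>G (rank 13686, signal 31.9). SLC25A1, the citrate carrier, had a WT region (rank 14066, signal 30.5) and a 195C>G region (rank 4689, signal 57.2) with summits at the same distance, 16 bp upstream of an inner start. Its BCL11A region was among the weakest of that list, at rank 12218 with a score of 14.4 and 784 bp upstream of the outer start. SLC25A21, the oxodicarboxylate carrier, was listed for BCL11A (rank 5383, score 34.5), WT (rank 10116, signal 37.2) and 195C>G (rank 13323, signal 32.4). SLC25A11, which exchanges oxoglutarate for malate, had a WT region only (rank 14157, signal 30.3; chromosome 17, 4940216 to 4940859), upstream of its start, and it shares its promoter with RNF167, whose start lies 159 bp away on the opposite strand.

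Among the 8 amino acid carriers 5 had a BCL11A promoter region, beside 25.2% of all genes. The ZBTB7A lists held 3 of the 8 in K562, beside 34.0%, 3 in WT, beside 46.1%, and 1 in 195C>G, beside 30.1%. SLC25A13 encodes citrin, an aspartate-glutamate carrier of the urea cycle and the malate-aspartate shuttle. Its BCL11A region was the strongest of any carrier, at rank 186 with a score of 324 (chromosome 7, 96322049 to 96322457, hg38, 106 bp upstream). WT had only weak regions at this promoter, the better at rank 22771 (signal 21.7) and 712 bp downstream. The other, at rank 26847 (signal 19.1), covered the BCL11A region, and K562 and 195C>G had none there. SLC25A12, the other aspartate-glutamate carrier, was listed for BCL11A (rank 7424, score 25.8), K562 (rank 11436) and WT (rank 30687, signal 17.2), each in the lower 50% of its list by rank. SLC25A15, the ornithine carrier of the urea cycle, was in all 4 lists: BCL11A at rank 962 (score 121), K562 at rank 5689, WT at rank 1185 (signal 97.9) and 195C>G at rank 2844 (signal 71.7). Its 4 regions overlapped one another, and all summits and midpoints lay between -20 and 121 bp of the start. SLC25A22, a glutamate carrier, had a BCL11A region at rank 10223 and a K562 region at rank 4090 that did not overlap. Both also lay within 1 kb of the start of PANO1, which begins 484 bp away on the other strand. SLC25A29, a carrier of basic amino acids, had a BCL11A region alone (rank 8317, score 23.0; chromosome 14, 100306363 to 100306732) centred on its start. SLC25A2, SLC25A18 and SLC25A44 had none.

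The phosphate and adenine nucleotide carriers supply ATP synthesis and export its product. SLC25A4, the ADP/ATP carrier of muscle and heart, was listed in the 3 ZBTB7A lists and not for BCL11A. Its 195C>G region had the best carrier rank of that list, 766 (signal 115), its WT region stood at rank 1278 (signal 95.2) and its K562 region at rank 3252, with centres 62 to 107 bp upstream. SLC25A3, the phosphate carrier, had a single WT region near the foot of that list (rank 31608, signal 16.8; chromosome 12, 98593063 to 98593706), 240 bp upstream. SLC25A31 had none.

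The calcium-regulated ATP-Mg/phosphate carriers differed among themselves. SLC25A23 had ZBTB7A regions of high rank 642 to 715 bp upstream of its start. They stood at rank 504 for K562, at rank 518 for WT (signal 126) and at rank 1819 for 195C>G (signal 85.5). BCL11A regions overlapped this site but were near the end of their list, the better at rank 12545 with a score of 13.8. SLC25A24 was listed in K562 (rank 6220) and 195C>G (rank 12763, signal 33.3) and not in WT, a combination held by 38 genes in all. SLC25A25 had BCL11A (rank 9932) and K562 (rank 6539) regions 7 and 162 bp downstream of its most upstream start, and NAIF1 starts 880 bp away on the other strand. SLC25A41, which lacks the calcium-binding part, had no promoter region.

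Both pyrimidine nucleotide carriers, SLC25A33 and SLC25A36, had K562 and WT promoter regions, beside 34.0% and 46.1% of all genes. Neither had a 195C>G promoter region, beside 30.1% of all genes with one. SLC25A33 had 4 BCL11A promoter regions, the best at rank 4460 (score 40.4) and 9 bp from the start. The others lay 208 bp (rank 4461, score 40.4), 652 bp (rank 6025) and 828 bp (rank 6026) downstream. Its K562 region (rank 11516) and WT region (rank 19118, signal 24.7) lay 478 and 687 bp downstream, in an intron, and the WT region overlapped each of these 3. SLC25A36 gives the case closest to the edge of the 1 kb window: its K562 region (rank 10815) lay 927 bp downstream and counted, and its 195C>G region (rank 11550, signal 35.4) lay 1018 bp downstream and did not, although the K562 region (chromosome 3, 140942635 to 140942859) lies within the 195C>G one (140942538 to 140943137).

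Cofactor carriers bring molecules such as coenzyme A, NAD, folate and S-adenosylmethionine into the organelle. SLC25A42, the coenzyme A carrier, had the best WT rank of any carrier, 158 (signal 170), in a region over its start (chromosome 19, 19063771 to 19064247, on the authors' hg38 with a modified chromosome 11). In 195C>G it stood at rank 1816 (signal 85.5) and in K562 at rank 4361. Its BCL11A region (rank 4888, score 37.3) lay apart, 577 bp upstream. SLC25A51, the NAD carrier, had ZBTB7A regions 70 to 78 bp upstream of its start, with rank 2282 for K562, rank 2771 for WT (signal 70.9) and rank 7173 for 195C>G (signal 46.5). Its BCL11A region (rank 2637, score 60.5) lay 521 bp downstream in an intron.

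SLC25A32, the folate carrier, was listed for BCL11A (rank 4866, score 37.5), WT (rank 8883, signal 40.1) and 195C>G (rank 11705, signal 35.2), all within 1 kb of the start of DCAF13 as well. SLC25A16, linked to coenzyme A, had weak regions for BCL11A (rank 10880) and WT (rank 23567), 61 and 125 bp downstream. SLC25A17 of the peroxisome had a weak WT region alone (rank 26081, signal 19.5; chromosome 22, 40818813 to 40819456), 264 bp downstream. SLC25A26, the S-adenosylmethionine carrier, and SLC25A52 had no promoter region.

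The glutathione carriers SLC25A39 and SLC25A40, a pair of close relatives, were both listed for BCL11A, beside 25.2% of all genes. They stood at rank 2240 (score 67.7) and 2697 (score 59.8). SLC25A40 had in addition the best K562 rank of any carrier, 350, with WT at rank 2346 (signal 75.9) and 195C>G at rank 4643 (signal 57.6). These ZBTB7A regions lay 498 to 533 bp downstream of the start, in an intron, and the BCL11A region 115 bp downstream. DBF4, a cell cycle kinase activator gene, starts 148 bp away on the other strand, so these regions count for both genes. SLC25A39 had a WT region in mid-list (rank 16799, signal 27.1) and none in K562 or 195C>G.

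Of the remaining carriers, SLC25A20, the carnitine-acylcarnitine carrier of fatty acid oxidation, had a BCL11A region alone (rank 3626, score 48.0; chromosome 3, 48898697 to 48898788), 251 bp downstream in a coding exon. SLC25A30 had WT (rank 15926) and 195C>G (rank 14541) regions, and SLC25A46, an outer membrane protein of mitochondrial dynamics, K562 (rank 13354) and WT (rank 11683, signal 34.2) regions 461 and 230 bp downstream. SLC25A27, known as uncoupling protein 4, had none. SLC25A35, an orphan carrier, had K562 (rank 6173) and WT (rank 8234, signal 41.8) regions 388 and 375 bp upstream. The other 4 orphans had none.

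**Figure D2:**
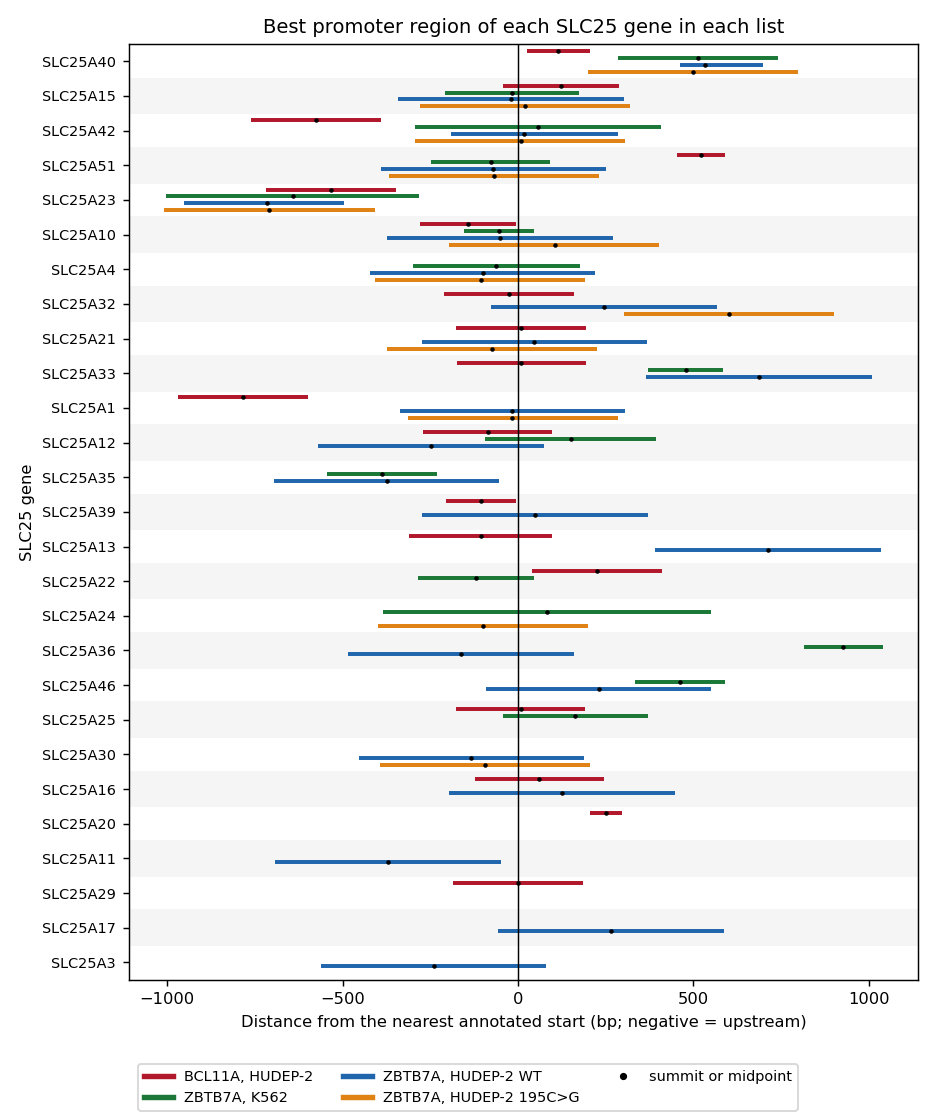
Bars show the best promoter region of each of 27 genes in each list by distance from its nearest annotated start in bp, with a dot at the summit or midpoint. ZBTB7A bars of one gene mostly lie over one another, whereas the BCL11A bar stands apart in several genes, such as SLC25A42 and SLC25A51. At SLC25A40 it stands apart from the K562 and WT bars and overlaps the 195C>G bar by 6 bp.

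The positions of both factors were compared at genes that had them. Among the ZBTB7A lists, the best K562 and WT regions overlapped at 12 of 13 carriers, beside 86.4% of all genes with both, with SLC25A36 the exception, and the best WT and 195C>G regions overlapped at 11 of 11, beside 92.2%. The best K562 and 195C>G regions overlapped at 8 of 8, beside 85.9%. The best BCL11A region overlapped the best WT region at 9 of 15 carriers, beside 72.2%, and the best K562 region at 6 of 11, beside 62.9%. For BCL11A and 195C>G the count was 5 of 9, beside 66.6%. The median distance between centres was 182 bp for BCL11A and WT at 15 carriers and 39.0 bp for K562 and WT at 13. No such distance was computed for all genes, so these medians have nothing to be set beside. For BCL11A and WT the exceptions were SLC25A1, SLC25A13, SLC25A33, SLC25A40, SLC25A42 and SLC25A51. At SLC25A13 and SLC25A33 this holds for the best regions only: the weaker WT region of SLC25A13 (rank 26847) covers its BCL11A region, and 3 further BCL11A regions of SLC25A33 overlap its WT region. Genes of chromosome 11 were left out of all these shares of all genes, since the BCL11A and K562 lists use another version of it than WT and 195C>G. Without SLC25A22, which lies there, the BCL11A and K562 count was 6 of 10.

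WT and 195C>G were compared to see which ZBTB7A promoter regions were listed in both. Of the 23 carriers with a WT promoter region, 11 had it overlapped in 195C>G by at least 1 bp, or 47.8% of them, beside 61.4% of all genes with a WT promoter region. Among the 12 without were SLC25A3, SLC25A11, SLC25A12, SLC25A13, SLC25A16, SLC25A17, SLC25A33, SLC25A35, SLC25A36, SLC25A39 and SLC25A46. The WT list was cut into 3 equal parts by rank. In the strongest part 9 of 12 carriers were overlapped, beside 83.6% of genes there, in the middle part 2 of 8, beside 41.0%, and in the weakest 0 of 3, beside 16.8%. SLC25A35 at rank 8234 and SLC25A46 at rank 11683 were among those in the strongest part without an overlap. SLC25A24 was the only carrier with a 195C>G promoter region and no WT one. SLC25A42 and SLC25A23 lie on chromosome 19, where 45.4% of WT promoter genes were overlapped against 63.2% on other autosomes, and both were overlapped. Each arm is 1 library and the 195C>G list is shorter, so absence from that list does not show that binding was lost.

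**Figure D3:**
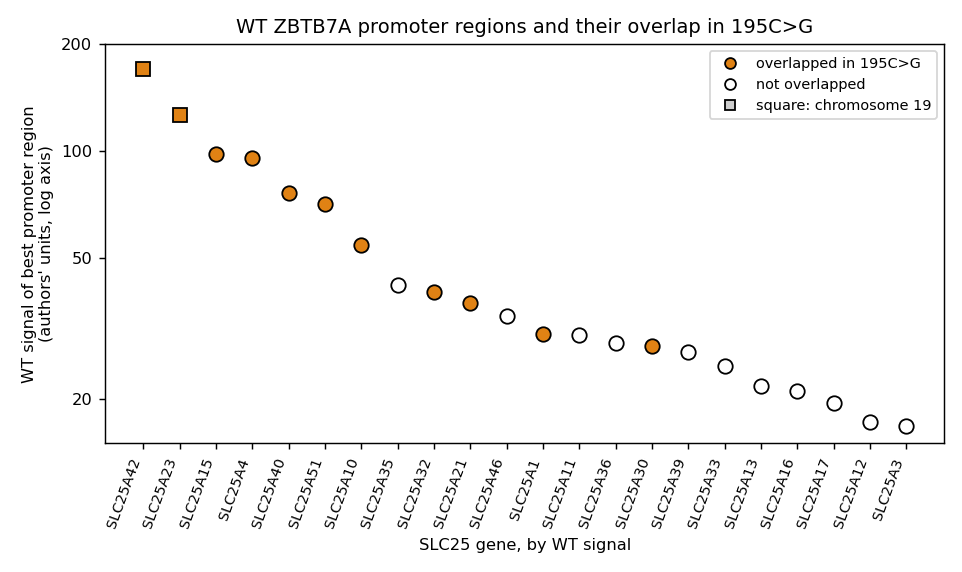
Of the 23 carriers with a WT promoter region, 22 are shown, ordered by the WT signal of the best one (authors' units, log axis). Filled symbols are overlapped by a 195C>G region, open ones are not, and squares lie on chromosome 19. The 7 strongest shown are filled, and the 7 weakest are open.

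Gene bodies, promoters near their ends included, held a BCL11A region in 12 carriers, beside 27.5% of all genes, and a K562 region in 10, beside 31.5%. For WT the count was 20, beside 46.6%, and for 195C>G 15, beside 31.1%. Regions inside bodies but outside the gene's own promoters were found in 3 carriers for BCL11A, beside 14.1% of all genes. For ZBTB7A they were found in 4 carriers in the K562 list, beside 15.2%, in 13 in the WT list, beside 27.1%, and in 9 in the 195C>G list, beside 17.4%. The median length was 41.1 kb for the 13 carriers with such WT regions and 16.8 kb for the other 27. It was 45.1 against 19.3 kb for K562 and 41.1 against 16.8 kb for 195C>G. For BCL11A it went the other way, with 8.78 kb for the 3 carriers and 23.1 kb for the other 37. SLC25A21, the longest carrier at 495 kb, held 8 in WT, 7 in 195C>G and 3 for BCL11A, all in introns. Its strongest BCL11A region (chromosome 14, 36767778 to 36768086, hg38) stood at rank 751 with a score of 143, well ahead of its promoter region. In WT 3 regions, at ranks 2202, 4227 and 5832, were likewise ahead of the promoter and had 195C>G overlaps at ranks 1312, 3828 and 2810.

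SLC25A13 had an intronic ZBTB7A site 85794 bp from its start by the K562 midpoint (chromosome 7, 96236182 to 96236525, rank 5239). WT had the site at rank 6132 (signal 49.1) and 195C>G at rank 4641 (signal 57.6), and this was the only 195C>G region of the gene. SLC25A25 had an intronic site with rank 3156 for K562 (chromosome 9, 128081049 to 128081352), rank 11180 for WT and rank 4604 for 195C>G. SLC25A35 had regions near its 3′ end in all 4 lists. Those at rank 1502 in WT (signal 90.4), 1683 in 195C>G (signal 88.1) and 10419 in K562 overlapped one another. The BCL11A region (rank 12404, score 14.1) overlapped only a weaker WT region (rank 21135). All of them lie within 1 kb of the start of the neighbouring gene RANGRF. SLC25A26 (3 WT regions) and SLC25A41 (2 WT and 1 195C>G) had body regions without a promoter region, and the remaining 10 of the 12 carriers without a promoter region had no region of either kind.

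The carriers were set beside other gene groups chosen by symbol. BCL11A promoter regions were listed for 47.5% of SLC25 genes, 21.9% (17.5 to 26.9%) of 315 other solute carriers, 36.0% (26.0 to 47.1%) of 86 genes of respiratory chain and ATP synthase subunits and 38.5% (27.7 to 50.2%) of 78 mitochondrial ribosomal protein genes. In WT the shares were 57.5% for SLC25, 40.6% for other solute carriers, 68.6% for the respiratory chain and 69.2% for the mitochondrial ribosome. In the same order, the 195C>G shares were 30.0, 24.1, 41.9 and 46.2%, and the K562 shares 40.0, 27.0, 53.5 and 51.3%. The intervals of SLC25 and the other mitochondrial groups overlapped in every list, while for BCL11A the SLC25 interval lay above that of other solute carriers.

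**Figure D4:**
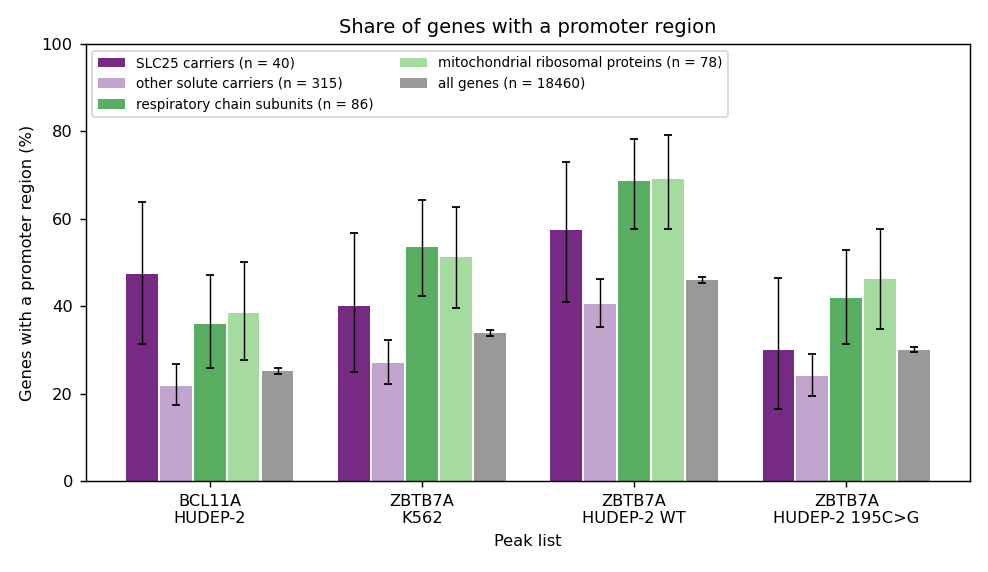
Bars give the percentage of genes with a promoter region in each list for SLC25 genes, other solute carriers, 2 further mitochondrial groups and all genes, with exact 95% binomial intervals. For SLC25 the highest bar is WT at 57.5% and the lowest 195C>G at 30.0%, level with all genes.

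Related mitochondrial transport genes, from a list of carriers with other names, pyruvate carriers, sideroflexins and import proteins, had promoter regions in 6 of 20 cases (30.0%) in the BCL11A list, beside 25.2% of all genes, and in 6 in the K562 list, beside 34.0%. The WT list held 16 of them (80%), beside 46.1%, and the 195C>G list 11 (55.0%), beside 30.1%. UCP2, an uncoupling protein of the SLC25 fold under another name, had a BCL11A region at rank 135 and ZBTB7A regions with rank 1176 for K562, rank 2081 for WT and rank 2096 for 195C>G, while UCP1 and UCP3 had none. MPC2, a subunit of the mitochondrial pyruvate carrier, had no BCL11A region but ZBTB7A regions with rank 111 (K562), rank 154 (WT) and rank 485 (195C>G). MPC1, its partner, had a region in each list, with rank 2047 (BCL11A), rank 3758 (K562), rank 662 (WT) and rank 7304 (195C>G). Of the left-out SLC25 genes, SLC25A37 (mitoferrin) and SLC25A38 were in all 4 lists and SLC25A28 in WT and 195C>G.

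Promoter sequence was available for 33 of the 40 carriers from RefSeq. The ratio of observed to expected CpG had a median of 0.927 in the 23 carriers with a promoter region (0.624 to 1.25) and 0.702 in the 10 with none (0.192 to 1.28), beside 0.877 and 0.493 for all genes with and without. The carriers of lowest ratio, SLC25A18 (0.192), SLC25A47 (0.221), SLC25A34 (0.271) and SLC25A45 (0.430), were in no list. The groups overlapped: SLC25A26 (1.28), SLC25A52 (1.03), SLC25A48 (0.989) and SLC25A31 (0.949) had high ratios and were in no list. By contrast SLC25A23 (0.626), SLC25A13 (0.659) and SLC25A20 (0.624) had lower ratios and were listed. All genes with a sequence were cut into 3 equal parts by this ratio, at 0.679 and 0.897. In the lowest part BCL11A was listed for 3 of 8 carriers, beside 8.77% of all genes, in the middle for 4 of 8, beside 31.9%, and in the highest for 9 of 17, beside 38.9%. WT was listed for 2 of 8 carriers in the lowest part, beside 19%, for 5 of 8 in the middle, beside 60.2%, and for 11 of 17 in the highest, beside 65.2%. K562 was listed for 1 of 8, beside 13.5%, 5 of 8, beside 44.5%, and 8 of 17, beside 49.8%. For 195C>G the counts were 1 of 8, beside 12.4%, 5 of 8, beside 39.7%, and 4 of 17, beside 42.6%.

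The 7 motifs were counted on both strands in 43 carrier promoters of 300 bases, of which 29 belonged to carriers listed somewhere and 14 to carriers in no list. CCAAT was found in 44.2% of them, beside 34.3% of 19713 promoters, GGGCGG in 62.8% beside 57.4%, and CCGGAAG in 20.9% beside 13.0%. TGACCA was found in 2 (SLC25A17 and SLC25A22), or 4.65% beside 9.07%, and CCTTCCC in 4 (SLC25A20, SLC25A45, SLC25A47 and SLC25A48), or 9.30% beside 16.9%. AGATAA was found in 3 promoters of SLC25A4 and SLC25A26, or 6.98% beside 7.90%, and GCATGCG in 1, that of SLC25A24, or 2.33% beside 4.56%. Only 1 of the 4 carriers with CCTTCCC was listed, SLC25A20, and for BCL11A alone. These are matches of letters in a fixed window, which the listed regions often exceed.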

How the data were processed

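Reads were processed by the authors with Trimmomatic 0.3.2, Bowtie2 2.2.9, Bowtie, Picard and bedtools on GRCh38/hg38, per the submitters' processing notes. The authors deposited 4 peak lists: BCL11A with a score per region, K562 with no value, and WT and 195C>G with a signal, a −log10 q-value and a summit. By the names of the deposited lists, the first pair holds optimal IDR (irreproducible discovery rate) peaks over replicates and the second comes from the caller SPP. WT and 195C>G use the authors' modified chromosome 11. For the hg38 lists, annotated positions after HBG1 were raised by 4928 bp, which placed SLC25A45 exactly at its RefSeq ends. All positions are 1-based.

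Here, regions were limited to standard chromosomes, identical ones were counted once, and overlapping ones were kept apart. Promoter, gene body and overlap calls (at least 1 bp) were made in Python 3.11.15 with pandas 2.3.3, intervals with scipy 1.17.1, and the calls were tested on simulated data. The CpG ratio is the highest over a gene's RefSeq starts. Members and lists were chosen with earlier results of these data known. Of the members, 1 is counted in all totals but not reported here by name. The others are named, with fuller values for those in all 4 lists, the 3 best per list, those in 1 list and those without a 195C>G overlap. SLC25A4 and SLC25A13 were added to the printed sequences after their values were seen. A planned comparison of protein identity was not made, so SLC25A31 and SLC25A52 were chosen by shared substrate. SLC25A40 had no run of bases outside annotated exons to print and SLC25A51 only a short one. Alternatives were other windows, overlap rules, transcripts and the stronger 50% of each list, which for K562 means the first 50% in list order.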

Additional observations from a re-analysis of the deposited data

How the results depend on the processing

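Promoter counts of carriers stayed within 1.5 times with windows of 500 bp and 5 kb, with any overlap of the window and with NR transcripts added, and for BCL11A and K562 also with chromosome 11 taken from RefSeq. With the stronger 50% of each list the BCL11A count fell from 19 to 11 and the 195C>G count from 12 to 7, by construction with fewer regions, while K562 gave 11 and WT 17. The shares of all genes at this setting were 14.3% (BCL11A), 18.5% (195C>G), 21.4% (K562) and 33.9% (WT). Carriers in all 4 lists numbered 2 with the 500 bp window (SLC25A10 and SLC25A15) and 4 with the stronger 50%, against 6. Of the WT promoter regions, 7 of 17 were overlapped with the stronger 50% of both lists. The other settings gave 9 to 11, among 20 to 26 carriers with a WT promoter region. Gene body counts were 12 (BCL11A), 10 (K562), 20 (WT) and 15 (195C>G). Without promoter regions these became 3, 4, 13 and 9, and the stronger 50% gave 6 for BCL11A and 5 in K562. Carriers in no list numbered 12, also 12 with 500 bp, 9 with 5 kb and 17 with the stronger 50%. At these other settings no share of all genes was computed for the counts in all 4 lists, in no list or overlapped in 195C>G. Nor was one computed for gene bodies with the stronger 50%, so changes in these counts cannot be ascribed to carriers in particular. No paired analysis was possible because the lists hold no values per replicate. Depth is unknown, and a gene absent from a list may still be bound.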
